A study of Mus musculus with 2 samples.

Results

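The Mage-A family is a set of X-linked genes whose transcripts are normally found in male germ cells. Its members were taken here as every gene probe of the array whose gene name begins with Magea followed by a digit. The rule found 7 genes with 1 probe each (Magea1, Magea3, Magea4, Magea5, Magea6, Magea8 and Magea9), of 27577 distinct gene names on the array. They were measured in C2C12 cells, an established mouse myoblast line that the labels trace to leg muscle of an adult C3H mouse. Knockdown cells stably expressed a short hairpin RNA against Mybbp1a, which encodes a nucleolar protein that binds transcription factors, and control cells stably expressed a control hairpin. Each population was a mix of stable clones, grown below confluence in medium with 20% serum, and the hairpins' promoter and vector are not given in the sources used here. From each of 2 biological replicates, 0.5 µg of total RNA per population was labelled, and the Cy5-labelled knockdown RNA and Cy3-labelled control RNA were hybridised together on 1 two-colour array. Values are log2 ratios of knockdown over control, or signals above the local background in scanner units.

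MAGE proteins share the MAGE homology domain and bind RING-type E3 ubiquitin ligases. In human cells, MAGE-A proteins bind TRIM28, a ligase and corepressor, and direct it to targets such as p53. Mage-A genes are silent in most somatic tissues, where DNA methylation contributes to the silencing, and many tumours express them again, hence the name cancer-testis genes. Skeletal muscle is among the tissues where they are normally silent.

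Each gene was read through a single probe of 60 bases, so what a probe can tell apart depends on its sequence. The 7 probe sequences follow, 5′ to 3′, with capitals for runs of 10 or more bases found in another Mage-A probe as well.
Magea8: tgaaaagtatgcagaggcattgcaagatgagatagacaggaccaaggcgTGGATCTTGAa
Magea1: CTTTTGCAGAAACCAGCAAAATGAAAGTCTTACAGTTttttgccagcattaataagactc
Magea3: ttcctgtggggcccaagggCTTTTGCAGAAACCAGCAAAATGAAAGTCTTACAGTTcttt
Magea6: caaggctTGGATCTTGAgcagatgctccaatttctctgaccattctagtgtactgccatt
Magea5: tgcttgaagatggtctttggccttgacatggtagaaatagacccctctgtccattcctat
Magea9: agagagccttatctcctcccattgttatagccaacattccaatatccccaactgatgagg
Magea4: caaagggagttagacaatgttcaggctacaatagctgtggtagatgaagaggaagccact
The Magea1 and Magea3 probes hold the same run of 37 bases, at positions 1 to 37 of the first and 20 to 56 of the second. Over their longest overlap of 41 bases they differ by the single substitution T38C, with the base of the Magea1 probe first and positions counted from 1 at its 5′ end. The Magea6 and Magea8 probes share a run of 10 bases, flanked by T7G and G18A, with the base of the Magea6 probe first and positions counted from its 5′ end. No other pair shared more than 7 bases in a row. Matches of the accessions listed with each probe to RefSeq (GRCm38.p6) gave a different overlap. The Magea1 and Magea3 probes do not list each other's gene despite the shared 37 bases. The Magea5 probe, which holds no shared run of 10 bases, lists 4 Mage-A genes. The Magea1 probe is annotated to Magea1, Magea5, Magea8 and Magea2, the Magea5 probe to Magea5, Magea1, Magea6 and Magea2, and the Magea8 probe to Magea8, Magea5 and Magea2. The Magea3, Magea4 and Magea6 probes are each annotated to 1 gene. Magea2 therefore has no probe of its own but may contribute to 3 of the readings, and signals of Magea1, Magea2, Magea3, Magea5, Magea6 and Magea8 cannot be assigned to a single copy with certainty. The accession of the Magea9 probe was not found in RefSeq, which lists that gene as the pseudogene Magea9-ps. Magea10 has no probe under this name, so its RNA was not analysed here.

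The family lies in 2 places on chromosome X. On mouse build mm8, to which the probe annotation refers, the Magea6, Magea3, Magea8, Magea5 and Magea1 probes lie on the minus strand within 165 kb, between positions 150264807 and 150429654. This is called the distal group here. Magea4 (68474791 to 68474850) and Magea9 (69122268 to 69122327) lie on the plus strand, nearer the other end of the chromosome. The members of the distal group gave far more signal in knockdown than in control cells, and the proximal pair did not. The family was selected on these knockdown over control ratios, so they are given as a description, with no test.

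Across the array, Mybbp1a itself had log2 ratios of -1.64 and -1.91, a mean of -1.78 ± 0.19 (SD, n = 2), with an adjusted p of 0.137 in limma. Of 27006 probes whose Cy5 or Cy3 signal was well above background on each array, limma called none at an adjusted p of 0.05, while 3432 were higher and 2454 lower at an unadjusted p below 0.05. With median centring in place of loess it called 4361 higher and 121 lower. With 2 arrays, values are therefore read by the size of the ratio on each array: 138 probes (0.511%) were at least 2-fold higher in knockdown cells on both, and 10 (0.037%) at least 2-fold lower. Spots well above background made up between 64.9% and 79.7% of gene spots in the 4 channels. Knockdown RNA carried Cy5 on both arrays, so a dye bias cannot be told apart from an effect of the knockdown. Nor can slide and replicate be told apart.

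The Magea8 probe read 2185 and 1627 in knockdown cells, against 92.0 and 231 in control cells. Its log2 ratio was the largest of the family, with 2.88 (array 1) and 1.23 (array 2) averaging 2.06 ± 1.16 (SD, n = 2), or 4.16-fold. Both knockdown signals lay far above both control signals, beyond the brighter Cy5 channel as a whole, in which the median gene probe read 277 and 397 in knockdown cells, against 115 and 139 in control cells. On array 1 only 6 of the 27006 tested probes had a higher ratio, on array 2 347 did, and by the mean of both arrays 19 did.

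Magea3, a near copy of Magea1 within the probed stretch, read 1475 and 1313 in knockdown cells, against 96.3 and 223 in control cells. Its log2 ratios were 2.31 and 0.99, a mean of 1.65 ± 0.93 (SD, n = 2) or 3.13-fold. The Magea1 probe read 1629 and 1450 in knockdown cells, against 121 and 246 in control cells. Its ratios were 2.20 and 1.00, a mean of 1.60 ± 0.85 (SD, n = 2) or 3.04-fold. The probes of this pair share 37 bases, so how much of each reading comes from the other gene's transcript was not tested.

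Magea6 read 1073 and 1203 in knockdown cells, against 61.9 and 217 in control cells. With ratios of 2.31 and 0.91 its mean was 1.61 ± 0.99 (SD, n = 2), or 3.05-fold. Magea5 had the smallest ratios of the distal group, 1.81 and 0.86, a mean of 1.33 ± 0.68 (SD, n = 2) or 2.52-fold, from 1394 and 1200.3 in knockdown cells, against 142 and 225 in control cells. Neither probe shared a run of more than 10 bases with another member's probe. Runs shared between probes do not show which transcripts a probe binds, and the Magea5 probe also lists Magea1, Magea6 and Magea2. How much of either reading comes from other copies was not tested.

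All 5 distal probes were well above background in both channels on both arrays, and none was saturated. Their knockdown signals were 1073 to 2185 and their control signals 61.9 to 246, before dye normalization. On that scale Magea9 also read higher in knockdown cells, at 150 and 302 against 64.3 and 105. Its log2 ratios after normalization were 0.10 and 0.08. The 6 probes above background, Magea9 included, were all higher in knockdown cells on both arrays, where 37.9% of all tested probes were higher on both and 32.1% lower. All 5 distal probes were at least 2-fold higher on array 1 (1.15% of all tested probes). On array 2 only Magea8 and Magea1 were (2.16% of all), so 2 of the 5 passed the 2-fold rule on both, set beside 0.511% of all tested probes. The other members lay close to that line on array 2, Magea3 at 0.99, Magea6 at 0.91 and Magea5 at 0.86. The count was 5 with median centring and 4 with the scanner software's processed signals. Across all 27006 tested probes the count also rose under these settings, from 138 to 340 and 294. In bulk RNA, a larger share of cells with these transcripts and more transcript per cell cannot be told apart.

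**Figure D1:**
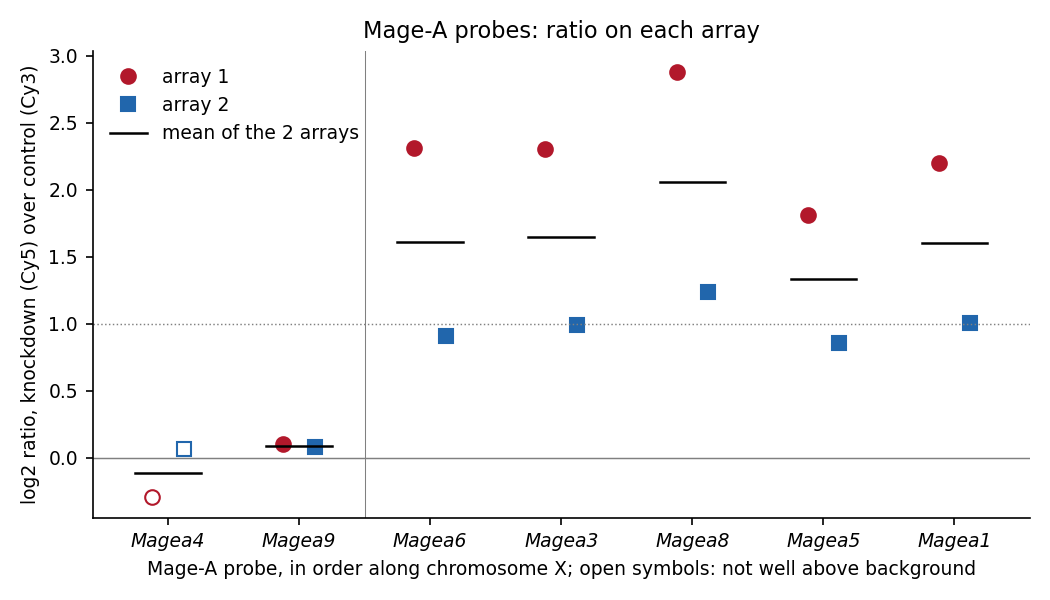
Log2 ratio of knockdown over control for each Mage-A probe on array 1 and array 2, with the mean as a bar. The 5 distal probes sit between 1.81 and 2.88 on array 1 and between 0.86 and 1.23 on array 2, while Magea9 is near 0 and Magea4, not well above background, is drawn with open markers.

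**Figure D2:**
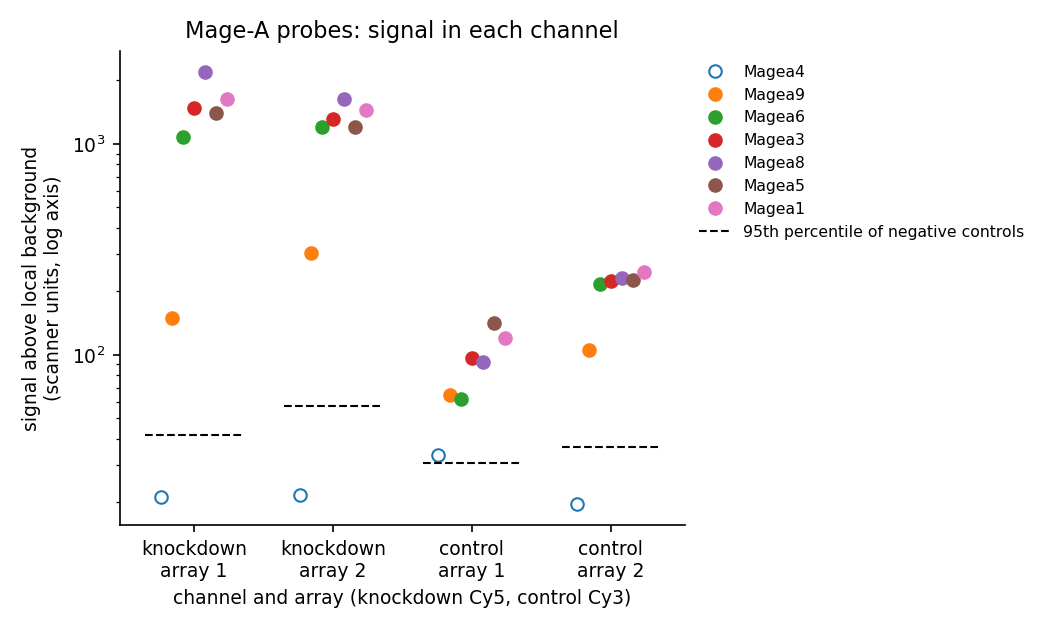
Signal above local background (log axis, scanner units) of each Mage-A probe in knockdown cells (Cy5) and control cells (Cy3) on both arrays, with the 95th percentile of negative control spots. Knockdown signals of the 5 distal probes lie between 1073 and 2185, above control signals of 61.9 to 246.

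Magea9, which RefSeq lists as a pseudogene, read 150 and 302 in knockdown cells, against 64.3 and 105 in control cells. After normalization its log2 ratios were 0.10 and 0.08, a mean of 0.09 ± 0.02 (SD, n = 2). Magea4, which RefSeq lists as protein coding, read 21.2 and 21.7 in knockdown cells, against 33.3 and 19.7 in control cells, and was not well above background in either channel on either array. Negative control spots reached 41.8 and 57.2 in Cy5 and 30.9 and 36.5 in Cy3 at their 95th percentile. Only the control reading on array 1 exceeded that level, so both populations gave Magea4 readings near those of negative controls, and nothing is read from their ratio. The probe at Magea7-ps, a Mage-A pseudogene that the array lists under a transcript ID and the rule does not take, read 1315 and 1351 in knockdown cells, against 435 and 419 in control cells. Its ratios were 0.34 and 0.22, a mean of 0.28 ± 0.08 (SD, n = 2). The higher ratios were therefore found in the distal group and not in the 2 proximal probes above background. A probe with no ratio beyond the array's bulk does not show that its gene did not change.

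Ratios of the distal group were smaller on array 2 than on array 1 for all 5 probes, with medians of 0.99 and 2.31. Control signals differed more between the arrays than knockdown signals did. Knockdown signals on array 2 were 0.745 to 1.12 times those on array 1, where the median of all tested probes was 1.06. Among the 2906 probes with knockdown signals of 1073 to 2185 on array 1 the median was 0.993, and the Mage-A probes lay between the 11.4th (Magea8) and the 69.7th percentile (Magea6). Control signals on array 2 were 2.51 times those on array 1 for Magea8, 2.32 for Magea3, 3.50 for Magea6, 2.04 for Magea1 and 1.59 for Magea5, where the median of all tested probes was 0.949. Dim probes had a higher median: among the 4966 probes with control signals of 61.9 to 142 on array 1, the median was 1.17. Within that band the Mage-A probes lay between the 76.2nd (Magea5) and the 98.6th percentile (Magea6). For the 5 distal probes the control channel of array 2 thus read more signal than that of array 1 and, except for Magea6, the knockdown channel less. Whether cells, clones, labelling or hybridisation differed was not tested.

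**Figure D3:**
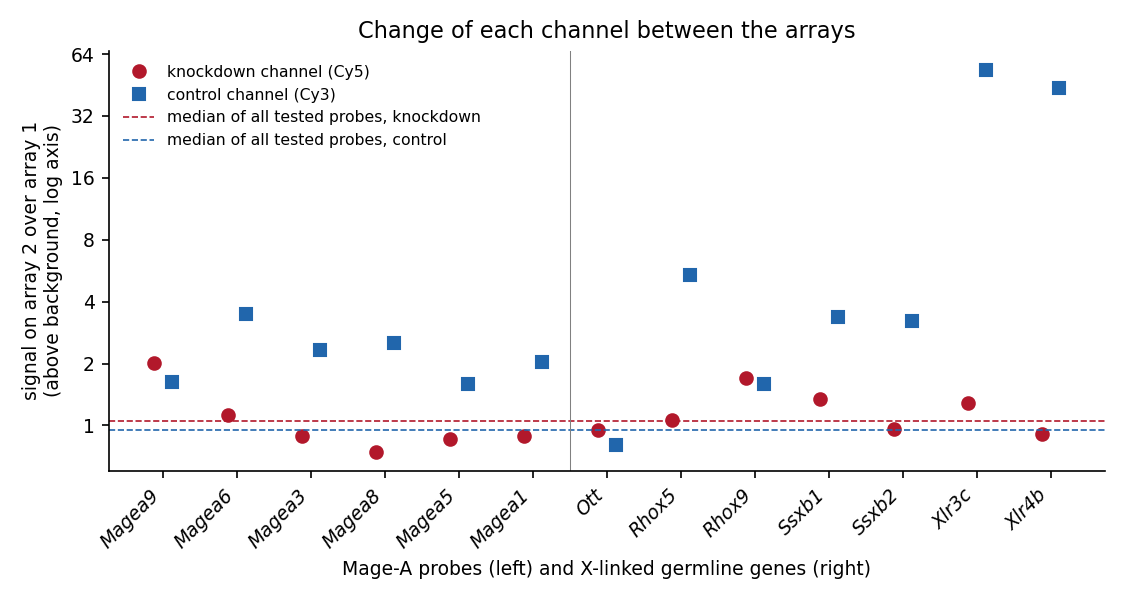
Signal on array 2 over signal on array 1 (log axis) in the knockdown (Cy5, circles) and control (Cy3, squares) channel for 6 Mage-A probes and 7 X-linked germline genes described further on, with the medians of all tested probes as dashed lines. For the 5 distal Mage-A probes the knockdown channel lies between 0.745 and 1.12 and the control channel between 1.59 and 3.50.

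The plot of all probes by array places the 5 distal Mage-A probes far to the right of the bulk, that is high on array 1, and less far above it on array 2. By the distance between ratios on the 2 arrays, the other genes nearest Magea8 were Clip3, which encodes a cytoplasmic linker protein (distance 0.47), Ptn, the growth factor pleiotrophin (0.66), Gpm6b, a membrane glycoprotein (0.67), Ssxb2, another X-linked germline gene (0.70), and Rgs2, a regulator of G-protein signalling (0.71). Magea3 lay at a distance of 0.62 and Magea6 at 0.66. Magea1 at 0.72, Magea5 at 1.13 and Magea9 at 3.01 were farther from Magea8 than all 5 of these other genes. The order rests on 2 values per gene.

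**Figure D4:**
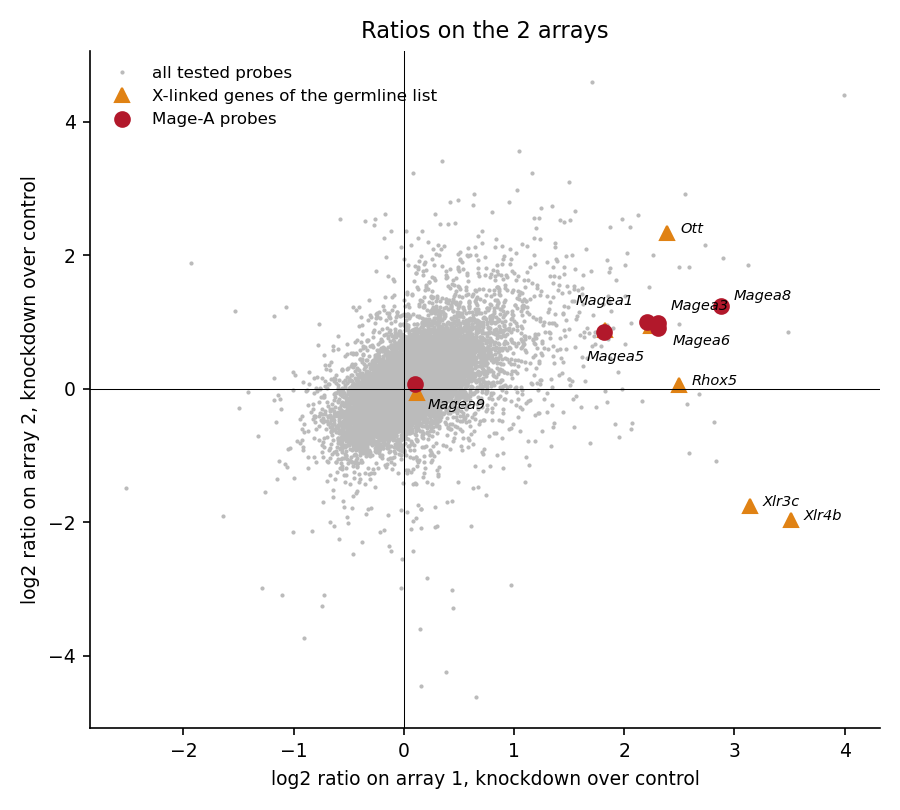
Log2 ratio of knockdown over control on array 1 (horizontal) and array 2 (vertical) for all 27006 tested probes (grey), with Mage-A probes (circles) and X-linked genes of the germline list (triangles) marked. The 5 distal Mage-A probes lie at 1.81 to 2.88 on array 1 and lower on array 2, at 0.86 to 1.23, with Ott above them and Rhox5, Xlr3c and Xlr4b below them on array 2.

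Genes around the distal group were next examined, taking the 5 nearest on each side in RefSeq order that had a tested probe. The 5 before the group, by position, lay 1090 (Spin2c) to 2153 kb (Shroom2) away. After it, Cldn34b2, Sat1, Acot9 and Prdx4 lay 35.1 to 234 kb away and 4930503H13Rik 1450 kb away. Close neighbours were thus read on 1 side only. None of these 10 neighbours passed the 2-fold rule on both arrays, and their mean ratios ran from -0.39 for Acot9, an acyl-CoA thioesterase, to 0.69 for Spin2c, a Spindlin family gene. Spin2c had ratios of 0.87 and 0.51. The neighbours' median was -0.01, against 1.61 for the distal Mage-A probes. Cldn34b2, a claudin family gene 35.1 kb from the group on GRCm38.p6, had a mean of -0.04. Sat1, which acetylates spermidine and spermine, had -0.10, and Prdx4, a peroxiredoxin, had -0.02. Around the proximal pair 1 of 10 neighbours passed on both arrays, Zfp185, which encodes an actin-associated LIM domain protein, at 1.18 and 1.08. Xlr4b, described further on, was another of these 10, 344 kb from the pair, with opposite signs at 3.51 and -1.96. Of all 847 tested probes placed on chromosome X, 10 (1.18%) were at least 2-fold higher on both arrays, and the Magea8 and Magea1 probes were among them.

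**Figure D5:**
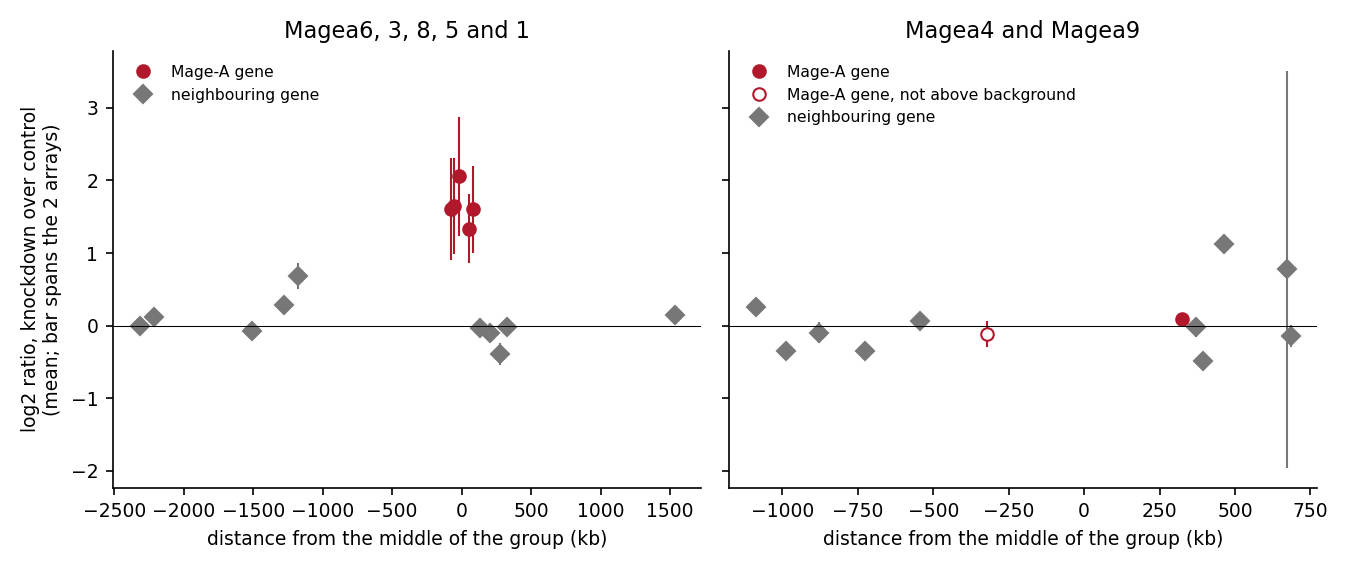
Mean log2 ratio of knockdown over control of Mage-A genes and their nearest tested neighbours by distance from the middle of the group (kb, GRCm38.p6), for the distal group (left) and the proximal pair (right), where bars span the 2 arrays. The distal neighbours average between -0.39 and 0.69, below the Mage-A genes at 1.33 to 2.06.

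To see what the distal genes share in sequence, the RefSeq promoter windows of GRCm38.p6 were read, 300 bases from 250 before to 50 after the annotated start. Windows were at hand for 8 Mage-A genes. Those of Magea1, Magea2, Magea8 and Magea10 lie at or near the 5′ end of the RefSeq gene span. Those of Magea3, Magea4, Magea5 and Magea6 lie inside it. The Magea5 window ends at 155061803, for example, while the span of this minus-strand gene reaches 155063151. CpG dinucleotides, the sites of DNA methylation, numbered 10 for Magea8, 9 for Magea2, 5 for Magea10, 2 for Magea4, 1 for Magea1, 1 for Magea6 and none for Magea3 and Magea5, where the median of all 32851 windows was 7. The Magea2 and Magea8 windows were 92.6% identical over 285 aligned bases, and those of Magea1 and Magea3 86.6% over 298. The windows of Magea8 and Magea5 are printed because they hold 10 and 0 CpGs, the extremes among the distal genes. Capitals mark CCGGAA and GCCATNTTG, searched on both strands.
Magea8, chrX:154995801-154996100, minus strand: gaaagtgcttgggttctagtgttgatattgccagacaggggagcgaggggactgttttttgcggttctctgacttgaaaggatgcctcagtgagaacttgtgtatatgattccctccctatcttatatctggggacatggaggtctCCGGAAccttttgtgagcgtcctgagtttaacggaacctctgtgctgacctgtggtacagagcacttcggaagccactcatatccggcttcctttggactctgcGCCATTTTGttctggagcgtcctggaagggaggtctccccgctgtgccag
Magea5, chrX:155061504-155061803, minus strand: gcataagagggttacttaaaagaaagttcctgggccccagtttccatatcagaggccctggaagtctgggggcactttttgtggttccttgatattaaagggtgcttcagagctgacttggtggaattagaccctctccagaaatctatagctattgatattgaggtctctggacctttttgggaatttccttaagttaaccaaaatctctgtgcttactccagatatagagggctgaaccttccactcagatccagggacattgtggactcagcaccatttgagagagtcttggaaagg
CCGGAA, a core that Ets factors bind, was in 2 of the 8 windows (Magea8 and Magea2), and in 14.9% of all windows. GCCATNTTG, a core of Yy1 sites, was in 3 (Magea8, Magea2 and Magea10), and in 2.51% of all. CACGTG, the E-box read by Max dimers, was in none of the 8 and in 7.15% of all, and TCCCGC, which E2f6 can bind, in none and in 20.0%. The motifs do not overlap one another. They were chosen with these ratios known, a match is a string of letters and not a bound site, and which start these cells use was not tested. The distal genes with a higher ratio thus had windows both with and without CpGs. The windows without any, of Magea3 and Magea5, lie inside the gene spans, so the windows do not all cover like stretches of the genes.

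Other MAGE families, which share the homology domain but include genes active in many tissues, had no member that passed the 2-fold rule on both arrays (per gene, 0.631% of 18068 tested genes were higher and 0.0553% lower). Of 15 such genes on the array 8 were tested, 6 of them higher on both arrays beside 40.6% of all genes, with a median mean ratio of 0.11. The largest were Maged1 at 0.29 ± 0.02, a neurotrophin receptor interactor, Maged2 at 0.22 ± 0.16, which has a role in kidney salt transport in humans, and Magef1 at 0.20 ± 0.01 (SD, n = 2 each). Those not tested for lack of signal included the testis genes Mageb1, Mageb4, Mageb5 and Mageb18.

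Genes of the germline other than Mage-A formed a list of 65, of which 54 were on the array and 19 were tested. Their median mean ratio was 0.05, and 1 of 19 was at least 2-fold higher on both arrays. This was Ott, an X-linked gene named for its transcription in ovary and testis, with 1316 and 1249 in knockdown cells, against 75.7 and 60.6 in control cells. Its ratios were 2.39 and 2.33, a mean of 2.36 ± 0.05 (SD, n = 2), with an adjusted p of 0.137 in limma. Its ratios were alike on both arrays, unlike those of the distal Mage-A probes.

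The 7 tested germline genes on chromosome X were looked at apart from the rest after their values had been seen. The filter takes genes bright in either channel, so the 7 leave out X-linked genes of the list with low signal in both. On array 1, 6 of 7 were at least 2-fold higher in knockdown cells, where 25 of 454 tested X-linked genes (5.51%) and 1.15% of all tested probes were. On array 2 the same count was 1 of 7, Ott. Ssxb2, a member of the mouse Ssx family of germline genes, read 704 and 675 in knockdown cells, against 34.3 and 111 in control cells, with ratios of 2.24 and 0.95. Its control signal was well above background on 1 array. Ssxb1, its near copy, had ratios of 1.83 and 0.89, and its control signal too was well above background on 1 array only. Both resembled the distal Mage-A probes in value on each array.

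Rhox5, a reproductive homeobox gene, read 7614 and 8102 in knockdown cells, against 536 and 2895 in control cells, with ratios of 2.50 and 0.06. Xlr4b, of the X-linked lymphocyte-regulated family, read 5512 and 4992 in knockdown cells, against 167 and 7306 in control cells, with ratios of 3.51 and -1.96. Xlr3c read 2015 and 2599 in knockdown cells, against 61.8 and 3316 in control cells, with ratios of 3.14 and -1.75. For Rhox5, Xlr4b and Xlr3c the control signal on array 2 was 5.41, 43.8 and 53.7 times that on array 1, and their ratios on the arrays disagree in size or sign. The exception on X was Rhox9, at 0.12 and -0.06. None of the 12 autosomal genes of the list was at least 2-fold higher on array 1, and their means ran from -0.33 for Brdt, a bromodomain protein of spermatocytes, to 0.66 for Piwil4, a Piwi protein that guides DNA methylation in fetal germ cells.

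A list of 30 genes of DNA methylation and germline gene repression, all tested, held methyltransferases and repressors and also the Tet enzymes, which oxidise methylcytosine. None passed the 2-fold rule on both arrays, 3 were higher and 17 lower on both (40.6% and 29.4% of all genes), and their median was -0.11, but 0.15 with median centring, where the median of all tested probes was 0.19. The largest ratios were of Hells, a chromatin remodeller needed for DNA methylation, at -0.53 and -0.78, a mean of -0.66 ± 0.18, of Suv39h2, a histone H3 lysine methyltransferase, at -0.47 ± 0.15, and of Uhrf1, which brings Dnmt1 to replicated DNA, at -0.44 ± 0.06 (SD, n = 2 each). Hells, Suv39h2 and Uhrf1 stayed below 0 with median centring, at -0.37, -0.24 and -0.07. Dnmt1, the maintenance methyltransferase, had ratios of -0.17 and -0.09, but lay at 0.16 with median centring. None passed the limma threshold, with adjusted p-values of 0.158, 0.164, 0.161 and 0.449 for Hells, Suv39h2, Uhrf1 and Dnmt1.

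Partners of MAGE proteins on the list numbered 11, of which 10 were tested and none passed the 2-fold rule on both. Their median was 0.07. Trim28, the ligase of MAGE-A complexes, had -0.01 ± 0.03. Trp53, which encodes p53, had -0.33 ± 0.16, though a further Trp53 probe gave 0.12, and Lnx1, a RING ligase, had 0.24 ± 0.07 (SD, n = 2 each). Among 9 tested Ets and Sp factors, which bind cancer-testis promoters in human cells, the median was 0.05 and again none was 2-fold apart on both. Ets2 had 0.39 ± 0.03, Sp3 0.23 ± 0.13 and Ets1 0.26 ± 0.62 (SD, n = 2 each). A further tested Sp3 probe gave -0.06, and the other 3 Ets1 probes gave -0.05, -0.23 and -0.14.

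Markers of the cells were set beside the family. All 8 myoblast markers were well above background, with Myod1, a myogenic determination factor, reading 6327 and 7417 in knockdown cells, against 3020 and 2126 in control cells. Their median ratio was 0.15, and Myog, which drives differentiation, had the largest mean, 0.65, followed by Myf5, a determination factor, at 0.40 and the cadherin gene Cdh15 at 0.31. Of 8 germ cell markers, Ddx4, a germ cell RNA helicase, and Sycp3, of the synaptonemal complex, were not well above background in either channel on either array, and Dazl, a germ cell RNA-binding protein, was so on 1 array only. The spermatid genes Tnp1, Tnp2, Prm1 and Prm2, which encode transition proteins and protamines, were well above background in both channels on both arrays, with Prm1 reading 493 and 771 in knockdown cells, against 197 and 287 in control cells. Their mean ratios were 0.04, 0.02, 0.03 and -0.09, and Acrv1, an acrosomal gene, had -0.29. The 5 tested germ cell markers had a median of 0.02, and none was higher on both arrays.

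Of 5 embryonic stem cell markers, Pou5f1, Nanog, Zfp42 and Dppa3 did not pass the filter on low signal. Sox2, the other one, read 708 and 516 in knockdown cells, against 671 and 60.8 in control cells, with ratios of -1.07 and 1.23, so the arrays gave opposite signs. The 4 Sertoli cell markers had medians of 0.12 and 0.08 on the single arrays and 0.25 by their means, which went both ways. Rhox5, described above, had 1.28, Inha, an inhibin subunit, 0.48, Amh, the anti-Müllerian hormone, 0.03 and Sox9, a transcription factor, -0.15. The part of other cell types in the Mage-A signal was not tested.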

How the data were processed

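Images were quantified in Agilent Feature Extraction 9.5.3.1, and probe positions are on mm8, per the file headers. The deposited scanner output holds mean and background intensity per spot in Cy5 and Cy3. Feature Extraction also wrote processed intensity, a log10 ratio and a p-value of each spot's ratio, per the file headers; that p-value was not used. The deposited value table holds log2 ratios that equal the software's own within 0.001 for 99.4% of probes, and its Magea5 value on array 2 is blank.

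Signals were background-corrected (normexp, offset 50) and loess-normalized (span 0.3) in limma 3.58.1 under R 4.3.3, without weight on 1639 control spots. Spots flagged as outliers, 154 and 237, were left out, and spots of 1 probe were averaged. Ratios of 27006 probes whose Cy5 or Cy3 signal was well above background on each array were fitted with limma (1 residual degree of freedom, Benjamini-Hochberg adjustment). Context genes, 18068 in all, were read through their brightest probe. The script was tested on simulated data with 2 arrays. There limma called 0 of 100 probes given a log2 change of 2, and 55 of 100 given a change of 4. Probes were named through RefSeq GRCm38.p6 by accession (23374), symbol (6733) or synonym (2907), and 8160 kept the name in the annotation.

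The labels call the replicates biological but do not say whether they were separate infections, clone mixes or cultures. The p-values therefore reflect no more than the spread of these 2 samples, part of which may be technical. Members and lists were chosen with earlier results of these data known. Of each of the 5 lists other than cell type markers, the text names genes that passed the 2-fold rule, otherwise the 3 with the largest mean ratio, except 1 partner of MAGE proteins that is not reported here. Dnmt1, Trim28, Piwil4, Brdt and the X-linked germline genes other than Ott were named after their values were seen, as were the myoblast markers; of the other cell types every marker is named.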

Additional observations from a re-analysis of the deposited data

How the results depend on the processing

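No paired analysis was possible because each array is already a direct ratio of a knockdown and a control sample. The Mage-A median stayed between 1.60 and 2.02 under every other normalization, filter and source of values tried, and was 0.95 to 2.25 on single arrays. The probes behind it were not always the same. The deposited table, at 2.02, lacks Magea5, and the median without the filter on dim probes, at 1.60, includes Magea4. Processed signals gave 1.97 on the same 6 probes as the main setting. Of Mage-A probes, 2 were at least 2-fold higher on both arrays, 4 with processed signals, 5 with median centring, 4 in the deposited table, and 2 to 5 on single arrays; Magea1 and Magea3 sit on the threshold. Magea9 was the only member to move by more than its SD, which was 0.02, from 0.09 to 0.01 with processed signals. The distal probes had SDs of 0.68 to 1.16, so staying within them says little about their stability. Magea6 moved further than Magea9, from 1.61 to 2.14 with processed signals. Of all probes, those higher (138) numbered 294 with processed signals, 340 with median centring, 276 in the deposited table and 311 to 584 on single arrays, and those lower (10) numbered 25, 6, 24 and 27 to 188. Limma called none in either direction except with median centring (4361 higher, 121 lower). Median centring put the medians at 0.27 for other Mage families, 0.15 for repressors (the sign turned), 0.33 for partners, 0.40 for Ets and Sp factors, 0.46 for myoblast and 0.41 for Sertoli markers. Processed signals gave 0.18 for germline genes, -0.15 for repressors, 0.029 for partners and -0.10 for germ cell markers. The deposited table gave 0.18 for germline genes, -0.16 for repressors, 0.058 for partners and 0.30 for Sertoli markers. Partners were at 0.054 without the filter on dim probes or with both channels required, and 0.078 as a mean over probes. Single arrays gave 0.022 to 0.12 for germline genes, 0.021 to 0.029 for partners and 0.079 to 0.12 for Sertoli markers. The cause of these shifts was not tested. Magea6 on array 1 was 2.31 with normexp and loess, 2.34 without background correction and 3.27 with processed signals, which differ in dye normalization as well.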
